A study of Mus musculus with 6 samples.

Results

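Pre-mRNA splicing factors and heterogeneous nuclear ribonucleoproteins (hnRNPs) were followed in colonic crypt cells with and without Villin-Cre deletion of M14. Members were chosen by gene name and a minimum count, a rule that does not use the difference between genotypes. The rule was set with earlier results of these data known. The names covered SR proteins and Tra2, hnRNPs, Sm and other Snrp proteins, and SF3A, SF3B and U2AF subunits. They also covered Prp factors, the Celf, Mbnl, Ptbp and Esrp families, and the Rbm proteins except Rbm15 and Rbm15b. Of 55487 annotated genes, 137 carried such a name, and the 124 with at least 10 counts in 3 or more of the 6 libraries are the members. The study made poly(A) RNA-seq libraries from purified crypt cells of the colon of 4-week-old C57BL/6 mice. The groups were 3 libraries from M14(f/f) mice, whose M14 alleles carry loxP sites (control 1 to 3), and 3 from M14(f/f) mice that also had Villin-Cre (mutant 1 to 3). M14 is read here as Mettl14, the partner of Mettl3 in the enzyme that writes N6-methyladenosine (m6A). Villin-Cre acts in the gut epithelium, so other cells keep their alleles, and as no control carried Cre, effects of Cre and of the deletion cannot be told apart. The design text speaks of 3 pairs of mice, without saying which libraries were paired.

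Introns are removed by the spliceosome, which is built from small nuclear ribonucleoproteins (snRNPs) that recognise the splice sites and the branch point. SR proteins mostly favour the use of the exons they bind, many hnRNPs oppose it, and tissue-regulated factors such as the Esrp, Mbnl, Celf and Ptbp proteins shift the choice of exons between cell types. Several members, among them Hnrnpa2b1, Hnrnpc, Rbmx and Srsf3, have been tied to m6A as proteins that bind methylated RNA, bind RNA reshaped by the methyl group, or work with its readers.

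Libraries held 24181631 to 35183636 counts, so that a gene with no count could still lie at 0.0853 to 0.124 CPM, the usual depth-scaled unit (limit of 3 counts, counting error only). Levels below are TMM-scaled CPM, means carry the SD over 3 libraries, and fold changes are mutant minus control on the log2 scale with their standard error (SE). Genes are said to have risen or fallen where the edgeR quasi-likelihood F test gave an adjusted p under 0.05. In controls 1 to 3, Mettl14 stood at 26.1, 20.8 and 22.0 CPM, and in mutants 1 to 3 at 14.0, 13.8 and 10.5 CPM. The log2 fold change of Mettl14 was -0.85 (SE 0.133, adjusted p = 0.000622), over a count that includes exons outside the deleted part. Epithelial markers were abundant in every library (Epcam at a mean of 2178 CPM in controls and 1617 CPM in mutants). Mutant 1 and mutant 2 stood apart in sex-linked genes: Xist had 16870 and 1328 counts there against 44 to 55 in the other 4 libraries, and Kdm5d on the Y chromosome had 25 and 1212 counts against 2074 to 2698. Counts of members are therefore also given without both libraries, a fit in which mutant 3 stands alone and is assumed to vary like the controls.

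The set as a whole moved modestly, with more falls than rises. Of the 124 members, 18 rose, 35 fell and 71 did not pass the test. That is 42.7% called, against 46.3% of all 18539 genes tested (23.5% rose and 22.8% fell, against 14.5% and 28.2% of members). The median log2 fold change was -0.07 over the members and 0.01 over all genes. In bulk RNA, fewer cells of a type and less of an RNA per cell cannot be told apart, and this holds for every value below. Among genes with a control mean of at least 10 CPM, 15 of 99 members rose (15.2%) and 31 fell (31.3%). Beside them, 2075 (22.8%) and 3013 (33.1%) of 9089 genes rose and fell. At that level the median log2 fold change was -0.10 over the members and -0.07 over all genes, so falls were also more frequent among abundant genes in general. Large changes were few: 13 members were called with a change past 1.5-fold (10.5%, against 27.5% of all genes), 6 of them up and 7 down, and 20 called members changed by under 1.25-fold. Control and mutant libraries were fully separate in CPM for 67 members (54%), against 56.9% of all genes. Past 2-fold, 6 members were called (4.84%, against 16.6%). With libraries scaled by their totals alone, 22 members rose and 22 fell, so the share of rises among called members was 50% in place of 34%, and the members' median was 0.00 in place of -0.07. All genes shifted the same way under that scaling, to 59% rises among called genes in place of 50.7% and a median of 0.08 in place of 0.01. Without mutant 1 and mutant 2, 13 rose and 29 fell, and 37 of the 53 calls were kept in the same direction. In all 6 fits that left out 1 library, 31 of the 53 calls held, 12 rises and 19 falls. The counts were lowest without control 3 (12 rose, 22 fell) and without mutant 3 (16 rose, 21 fell).

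**Figure D1:**
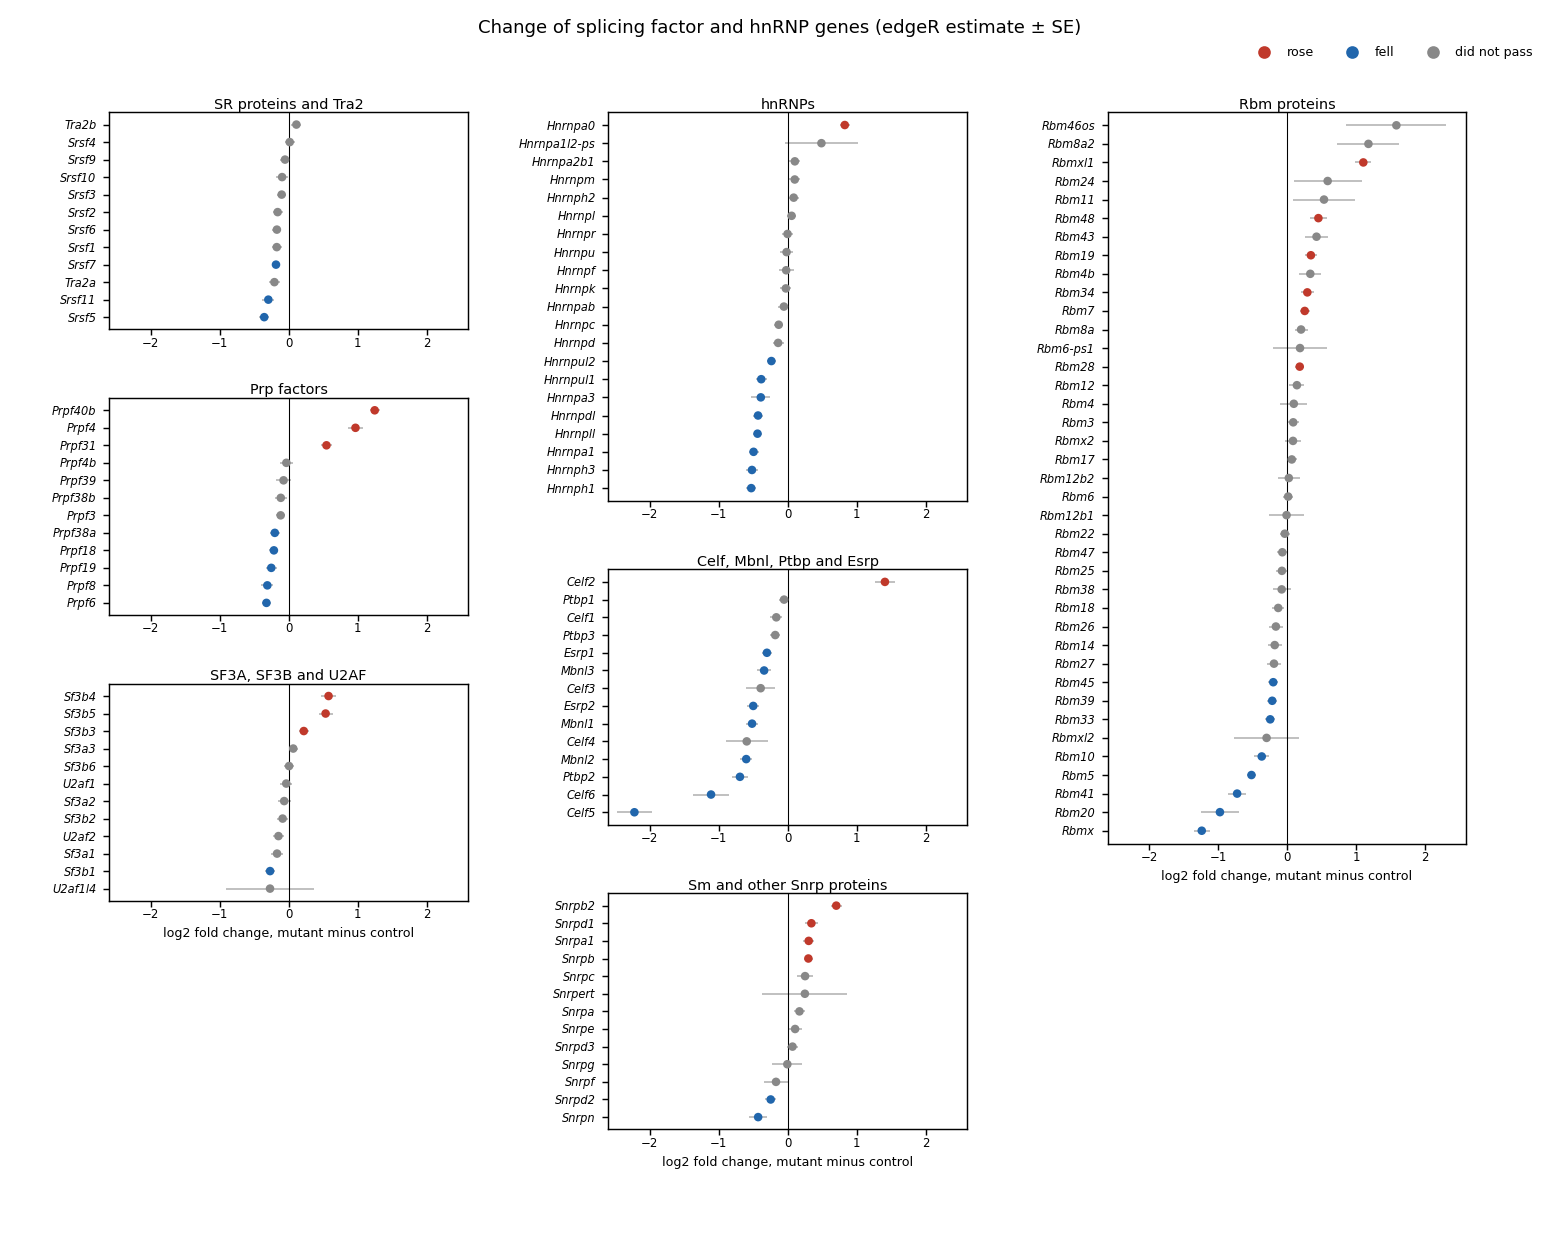
Each point is 1 of 123 of the 124 members, placed by its log2 fold change (mutant minus control, x axis) with a bar of 1 SE, in 7 panels by family. Red points rose, blue points fell and grey points did not pass the edgeR test; the Celf, Mbnl, Ptbp and Esrp panel lies mostly left of 0, and the SR panel stays between -0.35 and 0.11.

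Per length of exon, the most abundant members were 2 hnRNPs. Hnrnpab, an A/B-type hnRNP, stood at 148 ± 1.91 RPKM (CPM per kilobase of exon, SD, n = 3) in controls and 142 ± 10.3 RPKM in mutants, and Hnrnpa2b1 at 117 ± 5.34 and 126 ± 2.52 RPKM. Next in controls came Rbm39 (61.3 ± 1.96 RPKM), an SR-related coactivator, and Sf3b2 (60.7 ± 3.08 RPKM), a subunit of the U2-bound SF3B complex, whose order lies within their SDs. Srsf2, Hnrnpu, Srsf5, Hnrnph1 and Snrpb followed at 52.1 to 56.7 RPKM. At the other end, 9 members had a control mean under 1 CPM, among them the U2AF-like gene U2af1l4 and 3 named as pseudogenes or opposite-strand transcripts (Hnrnpa1l2-ps, Rbm6-ps1 and Rbm46os), and none of the 9 was called. The median member stood at 8.67 RPKM in controls, beside 2.72 RPKM for all genes tested.

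Of the 12 SR proteins and Tra2 proteins, none rose and 3 fell (25% called, against 46.3% of all genes), and all 12 changes were small, from -0.35 to 0.11, with a median of -0.16. The fall was clearest for Srsf5. Srsf5 was measured at 207, 226 and 231 CPM in the controls and at 166, 181 and 172 CPM in the mutants. The log2 fold change of Srsf5 was -0.35 (SE 0.0752, adjusted p = 0.0038). Srsf11, an SR-related protein also known as p54, fell, with a control mean of 294 ± 22.0 CPM and a mutant mean of 239.8 ± 17.2 CPM (log2 fold change -0.29, SE 0.0863, adjusted p = 0.0193), and Srsf7, which works in 3' end choice and export as well as splicing, fell too, with a control mean of 104 ± 1.17 CPM and a mutant mean of 91.2 ± 3.12 CPM (log2 fold change -0.18, SE 0.0646, adjusted p = 0.0416). Both are weak calls. Srsf11 missed the threshold without control 3 (adjusted p = 0.0782) or mutant 3 (0.062) and with library totals alone (0.0754), and Srsf7 missed it without any 1 of controls 1 to 3, mutant 2 or mutant 3 (0.0637 to 0.118), in DESeq2 (0.0634) and with library totals alone (0.216). Tra2b, an SR-like exon enhancer protein, had 60.0, 67.5 and 65.7 CPM in controls and 72.4, 68.1 and 68.2 CPM in mutants, while its relative Tra2a had 131, 147 and 133 CPM in controls and 111, 126 and 119 CPM in mutants. Neither passed (log2 fold change 0.11, SE 0.0714, adjusted p = 0.225 for Tra2b and log2 fold change -0.21, SE 0.0784, adjusted p = 0.0551 for Tra2a), though the libraries of both groups were separate for each. Srsf3, which recruits nuclear export and m6A reader proteins, had 64.5, 63.3 and 65.0 CPM in controls and 60.2, 62.4 and 57.2 CPM in mutants (log2 fold change -0.10, SE 0.0652, adjusted p = 0.237). Srsf10, an SR protein that represses splicing when dephosphorylated, had 33.9, 34.7 and 40.5 CPM in controls and 35.5, 35.6 and 31.1 CPM in mutants, with overlapping groups (log2 fold change -0.09, SE 0.0924, adjusted p = 0.433). Srsf4 and Srsf6, long SR proteins with related binding domains, had log2 fold changes of 0.02 (adjusted p = 0.872) and -0.17 (adjusted p = 0.0572). Tra2a and Srsf6 did pass with upper quartile scaling (adjusted p = 0.0482 and 0.0478), and with library totals alone 1 of the 12 fell.

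The 21 hnRNPs gave 1 rise, 8 falls and 12 without a call, a called share of 42.9% that lies near the 46.3% of all genes. The fallen share was 38.1%, against 22.8% of all genes and 33.1% of genes with a control mean of at least 10 CPM. These hnRNPs had a median control level of 168 CPM, beside 9.26 CPM for all genes. Their median log2 fold change was -0.06, which became 0.01 with library totals alone, where 1 rose and 6 fell. The rise was Hnrnpa0 (chr13:58125879-58128556, minus strand, GRCm38), a gene of the hnRNP A/B group. Hnrnpa0 had 109, 105 and 101 CPM in controls 1 to 3 and 186, 178 and 194 CPM in mutants 1 to 3. Every mutant library lay above every control, a 1.77-fold rise (log2 fold change 0.83, SE 0.0708, adjusted p = 1.69e-05). Hnrnpa1, the best known splicing repressor of that group, went the other way. In controls 1 to 3, Hnrnpa1 stood at 36.4, 34.3 and 36.6 CPM, and in mutants 1 to 3 at 24.6, 26.5 and 24.9 CPM. The log2 fold change of Hnrnpa1 was -0.50 (SE 0.0717, adjusted p = 0.000403), but 28.2% of its 50-base words also occur in other genes, so reads may have been lost to copies and its level is uncertain. Another gene of the group, Hnrnpa2b1, had 798, 731 and 783 CPM in controls and 839, 834 and 808 CPM in mutants. Its mutant libraries were the 3 highest, yet the difference did not pass (log2 fold change 0.10, SE 0.0784, adjusted p = 0.313). Hnrnpc, which binds uridine runs, had 103, 98.1 and 105 CPM in controls and 94.8, 93.9 and 90.8 CPM in mutants, also with separate groups and no call (log2 fold change -0.13, SE 0.0659, adjusted p = 0.131).

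The other hnRNPs that fell are given with their relatives. Hnrnph1 (chr11:50376990-50386528, plus strand), which binds guanine runs, had the smallest adjusted p of the 8. Hnrnph1 was measured at 317, 313 and 321 CPM in the controls and at 203, 231 and 224 CPM in the mutants. The mutants lay below all controls, at 0.693 of their level (log2 fold change -0.53, SE 0.0755, adjusted p = 0.00037). The shorter relative Hnrnph3 fell as well (-0.52), while Hnrnpf, which binds the same kind of site, had 29.3, 27.7 and 34.0 CPM in controls and 33.7, 29.6 and 26.3 CPM in mutants with overlapping groups (log2 fold change -0.02, SE 0.109, adjusted p = 0.877; 36.8% of its 50-base words occur in other genes). Hnrnpll, known for repressing variable exons of Ptprc in T cells, had 60.4, 59.9 and 62.8 CPM in controls and 44.0, 44.9 and 46.0 CPM in mutants and fell (log2 fold change -0.44, SE 0.0638, adjusted p = 0.000415). Its relative Hnrnpl had 208, 219 and 209 CPM in controls and 216, 223 and 223 CPM in mutants and did not pass (log2 fold change 0.06, SE 0.0674, adjusted p = 0.536). Hnrnpul1, a U-like protein of the nuclear matrix and the DNA damage response, fell, with a control mean of 237 ± 4.60 CPM and a mutant mean of 181 ± 13.8 CPM (log2 fold change -0.38, SE 0.0773, adjusted p = 0.00273). Hnrnpul2 had the weaker fall, with a control mean of 295 ± 9.94 CPM and a mutant mean of 249.9 ± 7.30 CPM (log2 fold change -0.24, SE 0.0703, adjusted p = 0.0198), which missed the threshold without control 3 (adjusted p = 0.0806), without mutant 3 (0.0715) and with library totals alone (0.0967). Hnrnpdl and Hnrnpa3 made up the 8, at -0.43 and -0.39; the second was lost without control 3 (adjusted p = 0.162), mutant 1 (0.0968) or mutant 3 (0.115), and its level is uncertain, with 27.1% of its 50-base words in other genes. Hnrnpu, Hnrnpk, Hnrnpm, Hnrnpab, Hnrnpd and Hnrnpr lay between -0.14 and 0.10 and were not called.

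**Figure D2:**
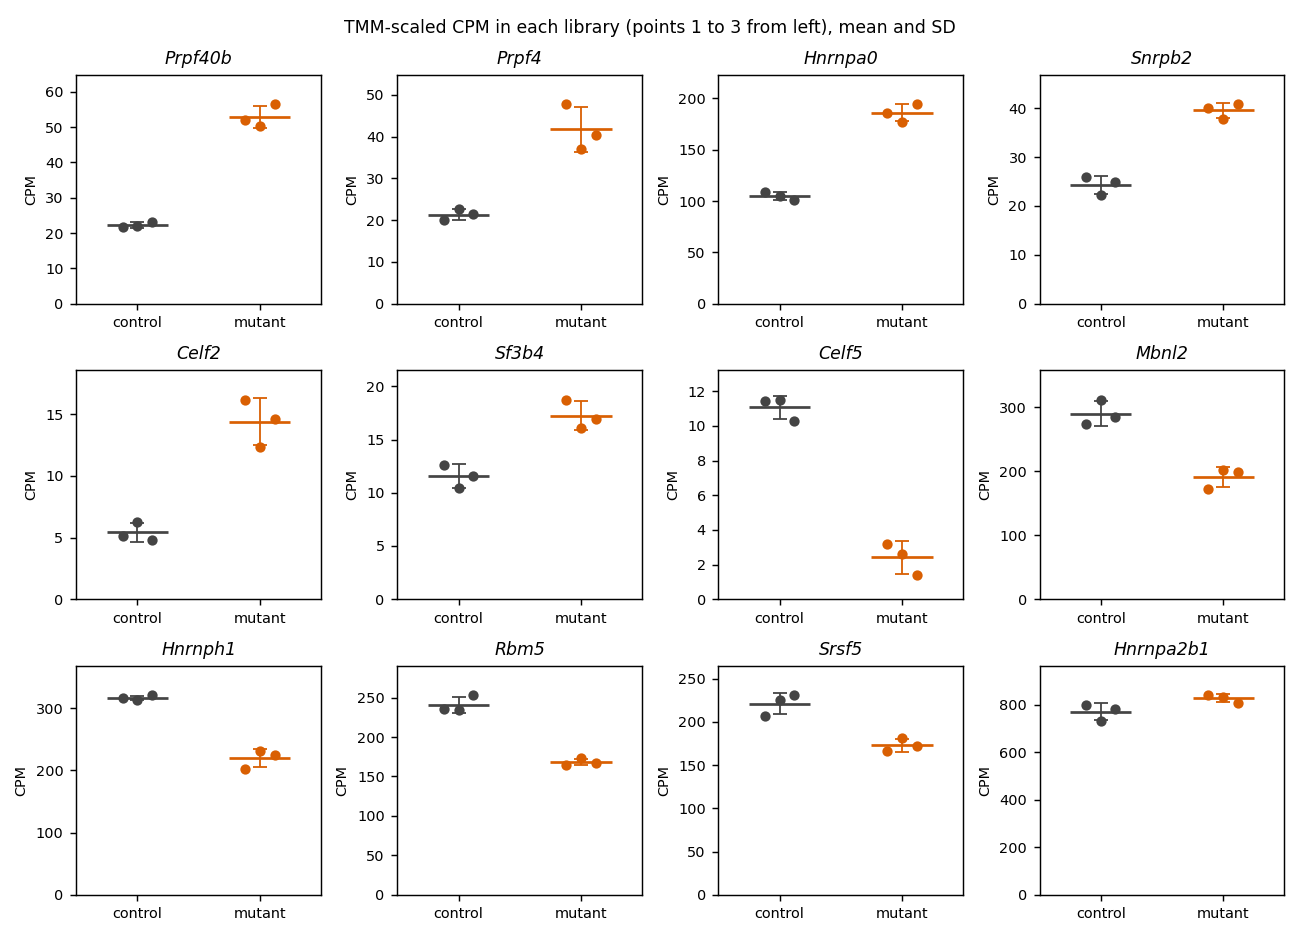
TMM-scaled CPM (y axis, from 0) of 12 members in control 1 to 3 and mutant 1 to 3, drawn from left to right within each group, with the mean and SD. The groups do not overlap in any of the 12 panels. This held for every called member, for 54% of all members and for 56.9% of all genes tested. Prpf40b rose 2.38-fold and Celf2 2.65-fold, and Celf5 fell to 0.214 of the control level. Hnrnpa2b1, which did not pass the test, is drawn for comparison.

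Rbmx and its relative Rbmxl1 moved in opposite directions. Rbmx (chrX:57383530-57393036, minus strand) encodes hnRNP G, an RNA-binding protein that has been described as binding m6A-bearing transcripts. Rbmx had 60.7, 57.4 and 61.1 CPM in controls 1 to 3 and 26.5, 29.3 and 20.5 CPM in mutants 1 to 3. Every mutant lay below every control (log2 fold change -1.24, SE 0.117, adjusted p = 3.17e-05). Rbmxl1 (chr8:78505269-78508898, minus strand) has a coding sequence of 1164 bases in 1 exon, where that of Rbmx has 1173 bases in 8 exons. In controls 1 to 3, Rbmxl1 stood at 9.75, 8.06 and 9.99 CPM, and in mutants 1 to 3 at 20.8, 17.8 and 21.2 CPM. The libraries of the 2 genotypes were again separate, here with the mutants higher (log2 fold change 1.11, SE 0.118, adjusted p = 6.23e-05). Per length, Rbmx went from 13.8 to 5.87 RPKM and Rbmxl1 from 5.47 to 11.7 RPKM. Because reads of such copies can be confused, their coding sequences were aligned: 90.9% of bases were identical, 106 were substituted, and 1.6% of the 50-base words of Rbmx also occurred in Rbmxl1. The stretch below, coding bases 109 to 168 of both (GENCODE M21 transcripts, GRCm38, written 5' to 3'), shows 11 of these substitutions in capitals, the kind of difference by which a read is assigned to one gene or the other. It was picked as the 60-base window without gaps that held the most differences, so it is not typical of how far the pair differs.
Rbmx: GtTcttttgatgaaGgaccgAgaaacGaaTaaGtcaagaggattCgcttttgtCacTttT
Rbmxl1: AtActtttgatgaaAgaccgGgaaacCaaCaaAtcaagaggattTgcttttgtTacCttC
In Rbmx this stretch spans an intron (chrX:57391320-57391567), and in Rbmxl1 it is continuous (chr8:78506545-78506604). Over the whole transcript, 0.672% of the 50-base words of Rbmx occur in other genes, but 79.6% of those of Rbmxl1 do, mostly in the unnamed genes Gm7192 and Gm7324. The level of Rbmxl1 is thus uncertain, and so is its order against Rbmx. As an X-linked gene, Rbmx was also fitted without mutant 1 and mutant 2, where its log2 fold change was -1.57 (adjusted p = 1.48e-05).

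The Sm and Snrp proteins were the family with the highest median, 0.17: 4 rose, 2 fell and 7 did not pass (46.2% called, near the 46.3% of all genes). Snrpb2 (chr2:143063039-143072853, plus strand), which encodes the U2-B'' protein of the U2 snRNP, led it. Snrpb2 was measured at 25.9, 22.2 and 24.9 CPM in the controls and at 40.0, 37.9 and 40.8 CPM in the mutants. All mutants exceeded all controls by a wide margin (log2 fold change 0.70, SE 0.0802, adjusted p = 9.48e-05). Snrpa1, whose protein U2-A' pairs with U2-B'', had 25.8, 27.6 and 28.6 CPM in controls and 34.0, 31.8 and 35.3 CPM in mutants and rose (log2 fold change 0.30, SE 0.0766, adjusted p = 0.00934). Snrpb and Snrpd1 encode proteins of the Sm ring that encircles most spliceosomal snRNAs. Snrpb had 108, 101 and 99.8 CPM in controls and 128, 122 and 130.0 CPM in mutants and rose (log2 fold change 0.30, SE 0.0694, adjusted p = 0.00612). Snrpd1 rose, with a control mean of 19.0 ± 1.63 CPM and a mutant mean of 24.0 ± 1.82 CPM (log2 fold change 0.34, SE 0.0954, adjusted p = 0.0152), a call lost without control 2, control 3, mutant 1 or mutant 2 (adjusted p 0.0517 to 0.0649). The 2 falls were Snrpd2 (-0.25), also of the Sm ring, and Snrpn (-0.43), an imprinted Sm-B relative that shares 27.3% of its exons' length with another gene on its strand. Snrpd2 was lost without any 1 of the libraries but control 2 (adjusted p 0.0523 to 0.0932) and in DESeq2 (0.0745), and Snrpn without control 1, control 3 or mutant 3 (0.0559 to 0.0664). With library totals alone, 5 of the family rose and none fell, and without mutant 1 and mutant 2, 3 rose and none fell.

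SF3A, SF3B and U2AF proteins, which select the branch point and the 3' splice site, gave 3 rises and 1 fall among 12 members (33.3% called, against 46.3% of all genes). The median was -0.05, and 0.02 with library totals alone. Within SF3B the subunits differed in direction. Sf3b4, which contacts RNA upstream of the branch point, had 12.6, 10.4 and 11.6 CPM in controls and 18.7, 16.1 and 16.9 CPM in mutants (log2 fold change 0.58, SE 0.108, adjusted p = 0.0018; 43.6% of its 50-base words occur in the unnamed gene Gm7935, so its level is uncertain). Sf3b5, one of the small subunits, had 31.3, 23.9 and 27.7 CPM in controls and 37.1, 42.0 and 41.2 CPM in mutants and rose too (log2 fold change 0.54, SE 0.103, adjusted p = 0.00211). Sf3b3 rose by less (log2 fold change 0.22, SE 0.0733, adjusted p = 0.0329), a call lost without any 1 of the libraries except mutant 2 (adjusted p 0.0606 to 0.194). Sf3b1, the subunit that holds the branch-point adenosine, had 435, 462 and 433 CPM in controls and 345, 386 and 373 CPM in mutants and fell (log2 fold change -0.27, SE 0.0775, adjusted p = 0.0178), though not without control 2 (adjusted p = 0.0556), without mutant 1 and mutant 2 (0.0687) or with library totals alone (0.0987). Sf3b2, Sf3b6, the 3 SF3A genes, U2af1 and U2af2 had log2 fold changes from -0.17 to 0.07 and did not pass.

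Prp factors split into 3 rises of 0.55 to 1.25 and 5 falls of at most 0.32 in size, with 5 that did not pass (61.5% called, against 46.3% of all genes). Prpf40b (chr15:99295087-99317018, plus strand), a relative of the yeast U1 protein Prp40, had the smallest adjusted p of all 124 members. Prpf40b had 21.7, 22.0 and 23.2 CPM in controls 1 to 3 and 52.0, 50.2 and 56.4 CPM in mutants 1 to 3. The rise was 2.38-fold (log2 fold change 1.25, SE 0.0749, adjusted p = 2.07e-06). Prpf4 (chr4:62408797-62426990, plus strand) and Prpf31 (chr7:3629985-3642486, plus strand) encode proteins of the U4/U6 snRNP, which joins U5 before the spliceosome is activated. In controls 1 to 3, Prpf4 stood at 19.9, 22.6 and 21.4 CPM, and in mutants 1 to 3 at 47.7, 37.1 and 40.3 CPM. Mutant 1 was the highest, and no library of one genotype reached the range of the other (log2 fold change 0.97, SE 0.102, adjusted p = 5.85e-05). Prpf31 had 41.9, 39.4 and 43.6 CPM in controls and 65.1, 57.2 and 60.3 CPM in mutants and rose (log2 fold change 0.55, SE 0.0757, adjusted p = 0.000301). Prpf3, the third U4/U6 protein of the set, stood at 38.2 ± 0.991 CPM and 35.3 ± 0.618 CPM and did not pass (log2 fold change -0.11, SE 0.0654, adjusted p = 0.18). Prpf6, which bridges U5 and U4/U6, had 81.8, 85.8 and 80.6 CPM in controls and 70.3, 65.9 and 62.4 CPM in mutants and fell (log2 fold change -0.32, SE 0.0711, adjusted p = 0.00473). Prpf8, the U5 protein at the catalytic centre, fell by 0.31 on the log2 scale, a call lost without mutant 2 (adjusted p = 0.0504) or mutant 3 (0.0594). Prpf18, Prpf19 and Prpf38a made up the falls at -0.25 to -0.20. Each of these 3 was lost when certain single libraries were left out, mutant 3 among them each time (adjusted p 0.066 to 0.153 without it), and all 3 with library totals alone, where 3 Prp factors rose and 2 fell.

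Celf, Mbnl, Ptbp and Esrp genes, the tissue-regulated splicing factors, had the lowest median, -0.45: 8 of 14 fell, 1 rose and 5 did not pass. The fallen share was 57.1%, against 22.8% of all genes and 33.1% of genes with a control mean of at least 10 CPM. All 9 calls were kept under each of 3 other scalings and with the replicate numbers as a block. With mutant 1 and mutant 2 left out, 8 were kept, Mbnl3 was lost (adjusted p = 0.0573) and Celf1 was gained (log2 fold change -0.37, adjusted p = 0.015). Esrp1 and Esrp2 drive epithelial exon choice. Esrp1 was measured at 303, 313 and 282 CPM in the controls and at 240.0, 246 and 242 CPM in the mutants. Esrp2 stood at 82.5, 71.7 and 79.2 CPM in controls and 55.1, 59.3 and 50.5 CPM in mutants. Per length, the controls held 47.5 RPKM of Esrp1 and 17.9 RPKM of Esrp2. Both fell, Esrp1 to 0.811 of the control level (log2 fold change -0.30, SE 0.0722, adjusted p = 0.00695) and Esrp2 to 0.707 (log2 fold change -0.50, SE 0.0841, adjusted p = 0.000988). Beside them, the summed level of 10 epithelial markers ran from 12300 to 13700 CPM in controls and 9450 to 11500 CPM in mutants, 4 of the 10 fell (Vil1, Krt20, Krt8 and Epcam) and 1 rose (Cdh1). Markers of absorptive cells summed to 12600 to 14700 CPM in controls and 5390 to 6390 CPM in mutants, with 6 of 8 fallen and none risen, and those of goblet cells to 21000 to 24700 CPM and 12500 to 13400 CPM, with 5 of 8 fallen and 1 risen. Over all genes tested, 22.8% fell and 23.5% rose. The part of these epithelial markers in the falls of Esrp1 and Esrp2 was not tested. Mbnl1 and Mbnl2 bind CUG repeats and similar RNA and promote adult exon patterns in muscle. Mbnl2 had 274, 311 and 284 CPM in controls 1 to 3 and 173, 201 and 198 CPM in mutants 1 to 3. Mbnl1 had 123, 129 and 128 CPM in controls and 92.3, 94.3 and 78.9 CPM in mutants. The falls were of like size, with log2 fold change -0.52, SE 0.0824, adjusted p = 0.000713 for Mbnl1 and log2 fold change -0.60, SE 0.0874, adjusted p = 0.00041 for Mbnl2. X-linked Mbnl3 fell by less (-0.34), and its call was lost without control 3 (adjusted p = 0.0847) or mutant 3 (0.0649).

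Ptbp1 and Ptbp3, repressors that bind polypyrimidine tracts, did not pass, at 164 ± 9.69 and 158 ± 8.72 CPM for Ptbp1 (log2 fold change -0.05, SE 0.0768, adjusted p = 0.598) and 198 ± 10.1 and 174 ± 9.32 CPM for Ptbp3 (log2 fold change -0.18, SE 0.0753, adjusted p = 0.0735). Ptbp2, known from neurons, fell, with a control mean of 17.1 ± 1.31 CPM and a mutant mean of 10.6 ± 1.27 CPM (log2 fold change -0.69, SE 0.116, adjusted p = 0.000958). Celf genes, whose proteins bind GU-rich elements and often oppose Mbnl proteins, held the largest fold changes in both directions among called members. Celf2 (chr2:6539694-7509563, minus strand), a form of brain, muscle and blood cells, rose 2.65-fold. In controls 1 to 3, Celf2 stood at 5.16, 6.28 and 4.83 CPM, and in mutants 1 to 3 at 16.2, 12.4 and 14.6 CPM. The log2 fold change of Celf2 was 1.41 (SE 0.148, adjusted p = 5.79e-05), with all mutants above all controls. Its level per length was low, 0.210 RPKM in controls. The summed level of 10 macrophage and dendritic cell markers moved with it, from 18.6 to 24.8 CPM across controls to 45.9 to 67.9 CPM across mutants. Of the 10, 9 rose and C1qa fell, where 23.5% of all genes rose and 22.8% fell. Levels of these markers were low, with a median control mean of 1.49 CPM, though each had more than 3 counts in some library. Of 7 lymphocyte markers tested, 1 rose and none fell. The neuron and glia list and the fibroblast and muscle list, given below, had more falls than rises. The part of any of these markers in the rise of Celf2 was not tested. Celf5 (chr10:81459227-81482709, minus strand), a mostly neural form, fell the most of any member that was called. Celf5 was measured at 11.4, 11.5 and 10.3 CPM in the controls and at 3.20, 2.64 and 1.39 CPM in the mutants. The mutants were at 0.214 of the control level (log2 fold change -2.22, SE 0.254, adjusted p = 9.45e-05), and without mutant 1 and mutant 2 at 0.123 (log2 fold change -3.02). Celf6 had 2.11, 3.38 and 2.55 CPM in controls and 1.54, 1.12 and 1.06 CPM in mutants and fell (log2 fold change -1.11, SE 0.263, adjusted p = 0.0067). Neuron and glia markers summed to 8.63 to 9.83 CPM in controls and 6.64 to 8.55 CPM in mutants, 3 of the 7 tested fell (Snap25, Uchl1 and Prph), 1 rose, and S100b, Gfap and Sox10 were too low to test; their part in the falls of Celf5 and Celf6 was not tested. Fibroblast and muscle markers, which summed to 250 to 292 CPM in controls and 132 to 150 CPM in mutants with 7 of 10 fallen, moved in the same direction as Mbnl1 and Mbnl2, and their part was likewise not tested. Celf1, the widely expressed form, did not pass (log2 fold change -0.17, SE 0.0883, adjusted p = 0.151) but was called without mutant 1 (log2 fold change -0.25, adjusted p = 0.0308). Celf3 and Celf4 did not pass.

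The remaining family, 39 Rbm proteins with RNA-binding motifs and varied tasks, gave 6 rises and 8 falls around a median of 0.03 (35.9% called, against 46.3% of all genes). Apart from Rbmx and Rbmxl1, most changes were small. Rbm5 (chr9:107740371-107770996, minus strand), which shifts exon choice in apoptosis genes, had the clearest fall. Rbm5 had 235, 234 and 253 CPM in controls 1 to 3 and 165, 173 and 168 CPM in mutants 1 to 3. The log2 fold change of Rbm5 was -0.51 (SE 0.0700, adjusted p = 0.000277). Its paralogue Rbm10, X-linked, fell by 0.37 on the log2 scale, a call lost without control 3 (adjusted p = 0.0656) or mutant 3 (0.0564) and kept without mutant 1 and mutant 2 (log2 fold change -0.64). Its level is uncertain, as 41% of its 50-base words occur in the unnamed genes Gm12799 and Gm15455. Rbm6, the neighbour and relative of Rbm5, had a log2 fold change of 0.02 (adjusted p = 0.877). Rbm41 had 8.46, 8.51 and 8.41 CPM in controls and 4.75, 5.43 and 5.18 CPM in mutants and fell (log2 fold change -0.72, SE 0.129, adjusted p = 0.00138). Rbm20, known for the splicing of titin in heart muscle, was scarce at 3.48, 3.20 and 3.45 CPM in controls and 2.47, 1.6 and 1.15 CPM in mutants. It fell (log2 fold change -0.97, SE 0.272, adjusted p = 0.0153), beside the fall in fibroblast and muscle markers given above. The part of those markers in the fall of Rbm20 was not tested. Rbm20 stood at -1.58 on the log2 scale when mutant 1 and mutant 2 were left out. The other falls were Rbm33, Rbm39 and Rbm45, at -0.24 to -0.20, all weak calls. Each was lost without control 3 (adjusted p 0.0606 to 0.0973) and with library totals alone. Rbm33 was also lost without control 1 or mutant 3, and Rbm39 without control 2, mutant 2 or mutant 3. Rbm45 was lost without any single library except mutant 3, and in DESeq2 (adjusted p = 0.0772).

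Of the 5 Rbm genes that rose besides Rbmxl1, 3 encode nucleolar proteins with relatives in ribosome biogenesis, Rbm19 (0.35), Rbm34 (0.29) and Rbm28 (0.18). These were weak calls: without control 3 the adjusted p was 0.0535 for Rbm19, 0.0885 for Rbm34 and 0.146 for Rbm28. Rbm34 was also lost without control 1 (0.1) or mutant 1 (0.0947), and Rbm28 in all 6 such fits. The others were Rbm48 (0.46), which acts in the splicing of minor introns and was lost without mutant 1 and mutant 2 (adjusted p = 0.082), and Rbm7 (0.26), a part of a nuclear exosome adaptor; Rbm7 was lost without control 1, control 3 or mutant 3 (adjusted p 0.0555 to 0.0776). Rbm3, a cold-inducible protein, had 25.0, 27.9 and 24.1 CPM in controls and 26.2, 28.1 and 27.5 CPM in mutants, with overlapping groups (log2 fold change 0.09, SE 0.0817, adjusted p = 0.396). Rbm47, an epithelial cofactor of cytidine editing, was abundant at 299.6 ± 10.3 and 286 ± 24.9 CPM and did not pass (log2 fold change -0.07, SE 0.0831, adjusted p = 0.538). Rbm4 and Rbm4b, near copies of each other, had log2 fold changes of 0.10 (adjusted p = 0.71) and 0.34 (adjusted p = 0.109). Another gene covers 60.5% of the exons of Rbm4 on its strand, so its level is uncertain. Among names that matched but had too few counts, Rbm42 had 1 to 10 counts in each library.

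X-linked members, 7 in number, are given apart because of the sex-linked difference of mutant 1 and mutant 2. They were Rbmx, Rbm41, Rbm10 and Mbnl3, which fell, and Rbm3, Hnrnph2 and Rbmx2, with log2 fold changes of 0.09 each, which did not pass. That is 57.1% fallen among 7 genes, against 22.3% of the 587 tested genes of the X chromosome, of which 20.8% rose. Mutant 3, whose Xist and Kdm5d counts were near those of the controls, had the lowest CPM of the 3 mutants for Rbmx, Rbm10 and Mbnl3. Without mutant 1 and mutant 2, Rbmx (-1.57), Rbm41 (-0.73) and Rbm10 (-0.64) were called, and Mbnl3 was not (-0.42, adjusted p = 0.0573).

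The balance between related members was also compared within each library, as the log2 ratio of their counts, which no scaling of libraries can change. For 10 pairs, an exact 2-sided permutation test over the 6 libraries can give a p no smaller than 0.1, and an adjusted p over the pairs no smaller than 0.1, so none can pass 0.05. In 5 of the 10 pairs the ratios of the genotypes did not overlap, and no such share was computed for other gene pairs. For single genes, the CPM of the groups did not overlap in 56.9% of all genes tested. Celf1 over Celf2 went from 4.63 ± 0.193 in controls to 3.05 ± 0.221 in mutants (SD, n = 3, exact p = 0.1, adjusted 0.2). Hnrnpl over Hnrnpll went from 1.80 ± 0.068 to 2.29 ± 0.0163, Hnrnph1 over Hnrnpf from 3.39 ± 0.135 to 2.88 ± 0.261, and Tra2a over Tra2b from 1.09 ± 0.0612 to 0.77 ± 0.138. Srsf4 over Srsf6 went from -0.59 ± 0.0972 to -0.40 ± 0.0541, also without overlap. The ratios of Esrp1 to Esrp2, Mbnl1 to Mbnl2, Ptbp1 to Ptbp3, Hnrnpul1 to Hnrnpul2 and Rbm4 to Rbm4b overlapped, with differences of 0.20, 0.08, 0.13, -0.15 and -0.23 (exact p 0.2 to 0.7).

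**Figure D3:**
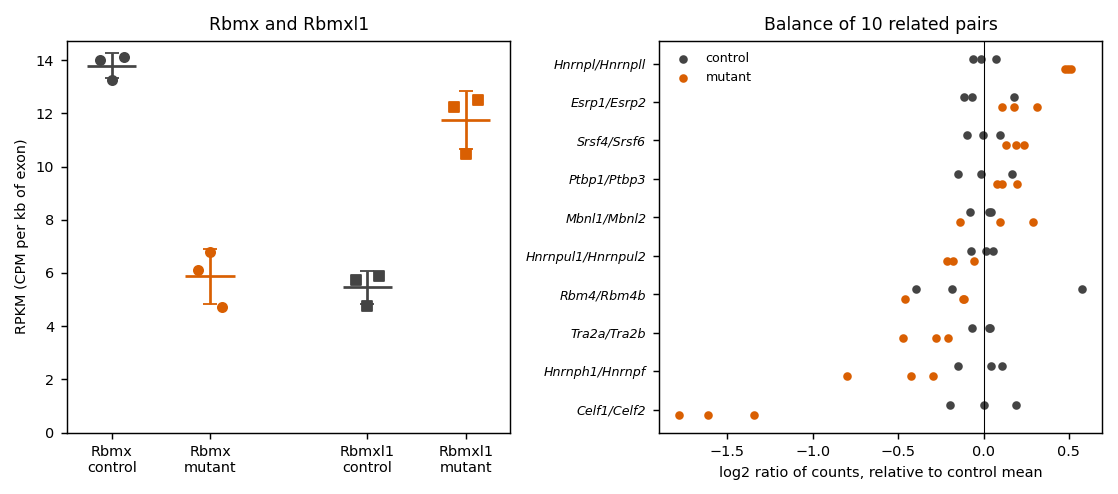
Left, level per length (RPKM, y axis) of Rbmx and Rbmxl1 in each library with mean and SD; Rbmx went from 13.8 to 5.87 RPKM and Rbmxl1 from 5.47 to 11.7 RPKM. Right, log2 ratio of counts (x axis, relative to the control mean) for 10 pairs of related members, 1 point per library; the Celf1/Celf2 ratio moved the most, by -1.58.

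Splicing genes outside the name rule were described from 6 lists of 179 genes, of which 172 were tested. In them 37 rose and 26 fell (36.6% called, against the 46.3% of all genes), with a median of -0.04. The list of snRNP assembly genes, the SMN complex and its partners that load the Sm ring and move snRNPs through the cell, gave 8 rises and no fall among 15 (53.3% and 0%, against 23.5% and 22.8% of all genes), with a median of 0.35. Phax, the adaptor that exports snRNA from the nucleus, had 44.0, 38.9 and 44.4 CPM in controls and 101, 94.7 and 105 CPM in mutants (log2 fold change 1.24, SE 0.0790, adjusted p = 2.99e-06). Gemin6 had 4.22, 3.94 and 3.09 CPM in controls and 13.2, 10.8 and 12.4 CPM in mutants (log2 fold change 1.69, SE 0.156, adjusted p = 2.69e-05) and Gemin7 had 15.0, 11.8 and 13.2 CPM in controls and 27.0, 28.3 and 29.3 CPM in mutants (log2 fold change 1.08, SE 0.101, adjusted p = 2.80e-05); their proteins pair with each other in the SMN complex. All mutants exceeded all controls for each of these. Coil, Strap, Gemin8, Snupn and Smn1 also rose, by 0.28 to 0.77. This list did show 1 fall without control 1, without mutant 3 and with no filter on low counts. Of the 8 rises, 5 were kept with no filter, and 6 or 7 in each fit that left out 1 library. Leaving out both mutant 1 and mutant 2 kept 5, and Gemin8, Smn1 and Snupn were lost (adjusted p = 0.326, 0.167 and 0.0862). Of 71 further spliceosome proteins, 16 rose and 12 fell (39.4% called, against 46.3% of all genes), with a median of -0.04. Luc7l2, a U1 snRNP-associated protein, fell, with a control mean of 207 ± 15.9 CPM and a mutant mean of 122 ± 8.22 CPM (log2 fold change -0.76, SE 0.0848, adjusted p = 8.21e-05), and Txnl4a, a small U5 protein, rose, with a control mean of 15.9 ± 1.64 CPM and a mutant mean of 27.5 ± 0.487 CPM (log2 fold change 0.79, SE 0.0918, adjusted p = 0.000109). Ddx46, an RNA helicase that acts with U2, fell (log2 fold change -0.51, SE 0.0781, adjusted p = 0.000574).

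Kinases and coactivators of SR proteins gave 3 rises and no fall among 23 tested, with a median of -0.05. That is 13% called, well below the 46.3% of all genes. The 3 rises were Scaf1 (0.65), Son (0.55) and Dyrk1a (0.38), while the other 20, the tested Clk and Srpk kinases among them, did not pass. The absence of falls depended on the fit. In this list 2 genes fell with DESeq2, 2 with limma-voom and 4 with no filter on low counts. Leaving out control 1 or mutant 3 gave 2 falls each, and upper quartile scaling gave 1. Other splicing regulators were even, at 7 rises and 7 falls of 36 tested (38.9% called, median -0.05). They were led by Pcbp1 (log2 fold change 0.57, SE 0.0718, adjusted p = 0.000173), Msi1 (log2 fold change 1.24, SE 0.160, adjusted p = 0.000203) and Tial1 (log2 fold change -0.46, SE 0.0698, adjusted p = 0.000564). In the exon junction and export list 2 of 15 rose and 3 fell (33.3% called, median -0.12). Magoh and Magohb, the near-identical core proteins of the junction complex, were the rises (0.64 and 0.38), and Sap18 was among the falls (-0.33). Magohb was lost without mutant 1 and mutant 2 (adjusted p = 0.0813), and Sap18 without control 3 (0.0571) or mutant 2 (0.0501). Nonsense-mediated decay genes gave 1 rise and 4 falls of 12 (41.7% called, median -0.10). Smg8, part of the Smg1 kinase complex, rose (log2 fold change 1.22, SE 0.0987, adjusted p = 1.23e-05), and Nbas (-0.55) and Dhx34 (-0.45) fell. Leaving out control 3 took the rises over all 6 lists to 24, and leaving out both mutant 1 and mutant 2 took them to 21.

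**Figure D4:**
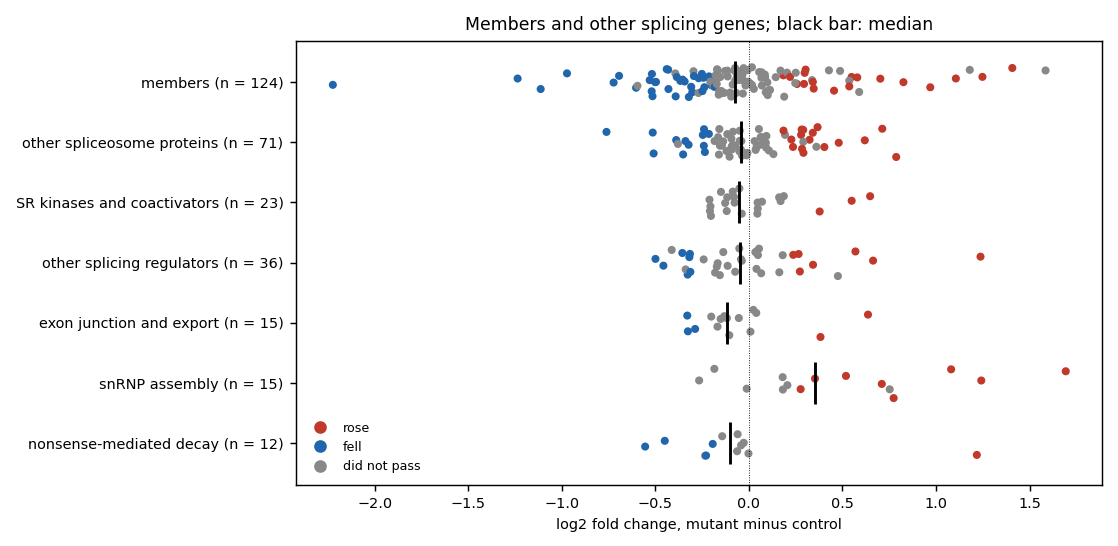
Log2 fold change (mutant minus control, x axis) of the 124 members and of 172 tested genes in 6 other splicing lists, 1 point per gene, spread at random within each row, with the median as a black bar. The snRNP assembly list stands at a median of 0.35, with no fallen gene in the fit drawn here. The medians of the other rows lie between -0.12 and -0.04.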

How the data were processed

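Poly(A) RNA of 6 libraries was analysed, 3 per genotype, from raw counts per gene as the authors deposited them. The submitters' processing notes name Trim Galore 0.6.5 for trimming, STAR 2.6.1d for alignment and the build GRCm38. Fragments were counted per gene with featureCounts 1.6.4 on the strand of read 1 against GENCODE vM25, per the file headers, whose command line leaves out multi-mapping reads and reads shared by overlapping genes. Copies of a gene can thus lose reads. To mark them, the share of each member's 50-base words found in other genes was computed from GENCODE M21 transcripts, and overlap of exons on the same strand from the counted annotation.

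Counts were tested in R 4.3.3 with edgeR 4.0.16: filterByExpr (minimum count 10, minimum total 15), TMM scaling, and a 2-sided quasi-likelihood F test of genotype alone. Benjamini-Hochberg adjustment covered the 18539 tested genes, and 0.05 was the threshold. RPKM divides CPM by the deposited exon length. Replicates differed by far more than counting noise (chi-square per gene of 13.2 or more), so none was counted as a repeat. PCR reads without molecular identifiers are not independent molecules, and labels do not say how replicates were prepared beyond the mice, so p-values measure the spread between these libraries.

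The members, the 6 splicing lists, the 9 marker lists and the pairs were chosen with earlier results of these data known. Named genes were the target, proteins tied to m6A (Hnrnpa2b1, Hnrnpc, Rbmx, Rbmxl1, Srsf3, Srsf10), all genes of the 10 pairs, Rbm3, Rbm47, up to 4 members per family and up to 3 genes per splicing list with the smallest p, and the 5 largest rises and falls. Other members were named after their values were seen. Values of some genes are not reported here. Marker lists not given in the report were endothelium (2 of 6 rose, 1 fell) and enteroendocrine cells (4 of 8 rose, 2 fell). The shares of all genes, to be set beside the counts of every marker list, were 23.5% risen and 22.8% fallen. Alternatives were 3 scalings, 3 filters on low counts, DESeq2 1.42.0, voom of limma 3.58.1, the replicate number as a block, a threshold of 0.01, a test against 1.5-fold, dropping the 20 most abundant genes, other pseudocounts for pair ratios, and leaving out each library or both mutant 1 and mutant 2.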

Additional observations from a re-analysis of the deposited data

How the results depend on the processing

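All calls of members kept in any alternative fit kept their direction. Against a 1.5-fold change, 2747 of all genes were called, with 5 members risen (Celf2, Prpf40b, Rbmxl1, Prpf4, Hnrnpa0) and 2 fallen (Celf5, Rbmx), and 6 other splicing genes risen and 0 fallen. At a threshold of 0.01, 18 members fell, and 23 other splicing genes rose and 16 fell. With library totals alone, 22 members and 17 other splicing genes fell. Without mutant 1 and mutant 2, 21 other splicing genes rose. Leaving out 1 library at a time gave 7057 to 8571 genes called, 12 to 18 members risen, 21 to 36 members fallen, and 24 to 33 other splicing genes risen. In at least 1 alternative, 28 members changed sign, none of them a called member, and library totals alone did so for 15. The values that follow are those of genes chosen by the rule for named genes. With library totals alone, Hnrnpf was 0.0457, Ptbp1 0.0161 and Rbm47 0.00232. Without mutant 1 and mutant 2, Srsf4 was -0.0671 and Rbm4 -0.0871, and with no filter Srsf4 was -0.0194. Over the fits without 1 library, Hnrnpf ran from -0.131 to 0.0643, Rbm4 from -0.0612 to 0.243, Srsf4 from -0.028 to 0.0458, the pair ratio Mbnl1/Mbnl2 from -0.0200 to 0.192 and Rbm4/Rbm4b from -0.429 to 0.0577. The cause was not tested. The replicate numbers did not pair the libraries: deviations of same-numbered libraries correlated at -0.12, -0.0652 and -0.138. With the replicate number as a block, 15 members rose and 25 fell, 40 of the 53 calls being kept, 29 and 19 other splicing genes rose and fell, and no pair ratio could reach an exact p under 0.25. Members under 1 CPM rest on few counts, and a change in them may not have been detectable at this depth.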
